A study of Mus musculus with 5 samples.

Results

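The genes described here are named for proteins of the mitochondrial ribosome. They were chosen by name, as every gene whose mouse symbol starts with Mrpl or Mrps followed by a digit, pseudogenes left out. The rule used no measured value and found 78 genes, 49 Mrpl and 29 Mrps, among the 27179 genes counted, and every symbol that fits it in the mouse gene table had a row in the counts. The measurement was acetylation of histone H3 at lysine 14 (H3K14ac) by CUT&Tag, where antibody-bound chromatin is cut and tagged in place by the Tn5 transposase. The cells were LSK cells, sorted from the bone marrow of male C57BL/6 mice, the Lin-Sca1+Kit+ compartment that contains haematopoietic stem cells. The knockout libraries have the genotype Hbo1def/def; T/+ and the control libraries the genotype Hbo1def/+; T/+, so the controls carry 1 def allele of Hbo1, and the label T/+ is common to both. All mice received poly(I:C) to induce Mx1-cre, a recombinase under an interferon-responsive promoter that also acts in cells other than blood. There were 2 knockout and 2 control libraries, and a control library made with an HBO1 (KAT7) antibody was not analysed here.

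Mitochondria carry their own ribosomes, which translate the few membrane proteins of the respiratory chain and ATP synthase encoded in mitochondrial DNA. The large subunit joins amino acids and the small subunit decodes the messenger RNA, and all of their proteins are encoded in the nucleus, made in the cytosol and imported. HBO1, the product of Kat7, is an acetyltransferase of histone H3, and H3K14ac is found at the promoters of active genes. Blood stem cells are known for low mitochondrial activity at rest, which rises as they enter division and differentiate.

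Each gene has counts for 3 windows: 5 kb before the start (upstream), the body, and 5 kb after the end (downstream). Gene body totals were 4723549 and 6031189 counts in the knockout libraries and 12386891 and 10572534 in the controls, upstream totals lay between 869859 and 1164409, and downstream totals between 677213 and 1260351. No spike-in is stated in the sources used here, so levels, given as CPM (counts over the TMM-adjusted library total), are relative within a window class. The libraries also differed at 1500 olfactory, vomeronasal and trace amine receptor genes, which LSK cells are not known to use. Upstream of these lay 12710 and 20703 counts in the knockouts, against 44483 and 38288 in the controls. The part of this difference in the members' relative levels was not tested. Nothing in the labels ties each library to its own mouse, and the p-values then reflect only how these libraries vary, which may be technical. H3K14ac upstream of Kat7 was 19.3 and 24.4 CPM in the knockouts, against 45.1 and 40.6 CPM in the controls, with a log2 fold of -0.97 ± 0.47 (SE; edgeR adjusted p = 0.0872), and over its gene body it was 88.2 and 39.1 CPM in the knockouts, against 30.7 and 30.1 CPM in the controls, with a log2 fold of 1.06 ± 0.32 (SE; edgeR adjusted p = 0.00668). A histone mark over the whole gene does not check the deletion. The label LSK can be set beside H3K14ac alone: by upstream and gene body counts together, per kb, 7 LSK marker genes had median percentiles among all genes of 86.8 and 90.6 in the knockouts and 79.2 and 82.9 in the controls, and 12 markers of mature blood lineages and stroma had 74.0 and 76.6 in the knockouts and 78.2 and 83.1 in the controls. None of these markers was at 0 by that measure, although the gene body of Ms4a1, a B cell marker, was at 0 in every library. That 0 does not show absence of the mark at the gene. Upstream, Ms4a1 had 35.2 and 51.0 CPM in the knockouts, against 85.9 and 71.3 CPM in the controls. The part of the cell types behind these markers in the results below was not tested.

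The mitochondrial ribosomal protein genes are mostly short genes with CpG-rich starts, close to other genes. Of the 78, 73 (93.6%) had a CpG ratio of at least 0.6 within 500 bp of the start, against 43.7% of the other 25108 genes with a position, and 57 (73.1%) had a gene body under 10 kb, against 43.5%. In 31 (39.7%) another gene started on the opposite strand within 1 kb of the start, against 11.9% of other genes. In 29 of these the partner starts in the member's upstream window, and in Mrpl43 (partner Twnk) and Mrpl48 (partner Rab6a) it starts inside the member's body. Where the starts lie back to back, the upstream window of each gene lies over the body of the other, and since the counting is not stated to use strand, reads there cannot be assigned to one gene. The pairs join the mitochondrial ribosome to varied partners: Sars2, the mitochondrial seryl-tRNA synthetase, beside Mrps12, Ndufb5 of respiratory complex I beside Mrpl47, Fau, which encodes a fusion that yields a cytosolic ribosomal protein, beside Mrpl49, the chaperonin subunit gene Tcp1 beside Mrpl18 and the proteasome subunit gene Psma2 beside Mrpl32. Mrpl46 and Mrps11, one protein for each subunit, start in opposite directions with 41 bases between them. The 5 members below that CpG ratio were Mrpl11, Mrpl20, Mrpl35, Mrps9 and Mrps23.

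The stretches between starts are shown because they lie in the upstream windows of both genes of a pair. Each is read 5′ to 3′ on the strand of the first gene, from the start of its partner to its own, from the RefSeq GRCm38.p6 assembly. Capitals mark exact matches, on either strand, of 5 motifs: GCGCA, any base and GCGC for the nuclear respiratory factor NRF1, CCGGAAG of ETS factors, GGGCGG (GC box), AANATGGCG of YY1 and TGACGTCA of CREB.
Mrpl46 and Mrps11 (chr7:78783090-78783130, minus strand): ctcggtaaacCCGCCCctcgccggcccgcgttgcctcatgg
Mrps12 and Sars2 (chr7:28741822-28741967, minus strand): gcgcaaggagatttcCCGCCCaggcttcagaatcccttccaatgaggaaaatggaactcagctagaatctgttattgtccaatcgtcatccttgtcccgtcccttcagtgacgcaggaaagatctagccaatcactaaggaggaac
Mrpl49 and Fau (chr19:6057756-6057946, minus strand): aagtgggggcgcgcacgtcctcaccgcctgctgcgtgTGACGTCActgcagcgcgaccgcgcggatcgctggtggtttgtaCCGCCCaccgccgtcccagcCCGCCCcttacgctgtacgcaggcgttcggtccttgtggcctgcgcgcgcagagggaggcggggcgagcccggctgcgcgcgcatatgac
Mrpl32 and Psma2 (chr13:14613038-14613241, minus strand): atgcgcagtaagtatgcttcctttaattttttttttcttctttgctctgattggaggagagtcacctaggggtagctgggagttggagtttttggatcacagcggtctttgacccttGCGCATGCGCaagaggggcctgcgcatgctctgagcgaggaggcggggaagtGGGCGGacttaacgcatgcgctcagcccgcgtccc
Mrpl57 and Ska3 (chr14:57826164-57826238, plus strand): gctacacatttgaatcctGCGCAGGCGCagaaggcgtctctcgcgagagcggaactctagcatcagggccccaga
Mrps34 and Eme2 (chr17:24895088-24895119, plus strand): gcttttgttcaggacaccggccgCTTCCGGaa

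For 3 genes with no other start in their upstream window, the 250 bases before the start are shown with the same marks: Mrpl45, with one of the highest upstream folds, Mrpl12 of the ribosomal stalk, and Mrpl3, with one of the lowest upstream folds.
Mrpl45 (chr11:97315466-97315715, plus strand): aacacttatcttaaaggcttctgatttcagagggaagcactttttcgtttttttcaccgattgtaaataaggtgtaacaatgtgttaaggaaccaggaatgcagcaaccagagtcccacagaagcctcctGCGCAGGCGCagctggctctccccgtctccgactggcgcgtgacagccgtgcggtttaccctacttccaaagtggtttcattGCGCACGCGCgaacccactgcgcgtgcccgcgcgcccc
Mrpl12 (chr11:120484387-120484636, plus strand): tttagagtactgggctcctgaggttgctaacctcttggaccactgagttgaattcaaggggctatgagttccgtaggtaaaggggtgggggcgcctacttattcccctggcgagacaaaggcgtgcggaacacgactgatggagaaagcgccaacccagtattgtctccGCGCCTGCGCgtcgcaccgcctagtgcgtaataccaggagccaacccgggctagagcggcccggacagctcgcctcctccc
Mrpl3 (chr9:105053018-105053267, plus strand): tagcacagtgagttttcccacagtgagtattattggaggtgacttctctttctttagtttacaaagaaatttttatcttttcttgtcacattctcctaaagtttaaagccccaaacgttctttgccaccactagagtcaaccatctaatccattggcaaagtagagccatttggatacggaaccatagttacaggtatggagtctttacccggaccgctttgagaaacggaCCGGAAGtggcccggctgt

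RefSeq promoters were found for 69 of the 78 genes, 67 of them within 100 bases of the start used here. Within the 250 bases before the start, the NRF1 motif was in 10 of the 69 (14.5%), against 5.27% of all 18458 promoters and 9.9% of the 8697 CpG-rich promoters of other genes. The ETS motif was in 16 (23.2%), against 8.98% and 15%, and the GC box in 33 (47.8%), against 42.4% and 67.7%. The YY1 and CREB motifs were in 2 promoters each (2.9%), against 1.32% and 2.01% of all and 2.39% and 3.24% of CpG-rich promoters of other genes. A match describes these letters and shows no binding. Of the members tested upstream, described below, 7 of 10 with the NRF1 motif and 25 of 55 without it were higher in the knockouts, 8 of 15 and 24 of 50 for the ETS motif, and 14 of 29 and 18 of 36 for the GC box, with no test of the difference.

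Upstream of the start, H3K14ac was higher in the knockouts at 34 of the 72 mitochondrial ribosomal protein genes that passed the filter on low counts, and lower at none (edgeR quasi-likelihood test, Benjamini-Hochberg adjusted p under 0.05). DESeq2 and limma-trend also called none lower, and at an unadjusted p under 0.05 each of these tests had 0 lower. The members higher are 47.2%, where the same test called 24.0% of all 23200 upstream windows higher and 14.3% lower. Both knockout libraries lay above both controls at 59 of the 72, against 37.8% of all windows, and below both at 1, Mrpl19, against 39.9%. The median log2 fold was 1.18, against -0.09 over all windows. More cells with the mark and more of it per cell cannot be told apart in these pooled cells. The median member had 40.3 and 27.1 CPM in the knockouts, against 13.9 and 16.6 CPM in the controls, so knockout replicate 1 was the higher of the knockouts. The calls rest on all 4 libraries: none of them remained without knockout replicate 1, 8 remained without knockout replicate 2 (Mrpl1, Mrpl32, Mrpl33, Mrpl35, Mrpl41, Mrpl48, Mrpl57 and Mrps18b), 1 (Mrpl49) without control replicate 1 and 3 (Mrpl35, Mrpl45 and Mrpl49) without control replicate 2, while the log2 folds above 0 numbered 68 and 67 of 73 without knockout replicate 1 or 2 and 66 and 70 of 74 without control replicate 1 or 2.

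**Figure D1:**
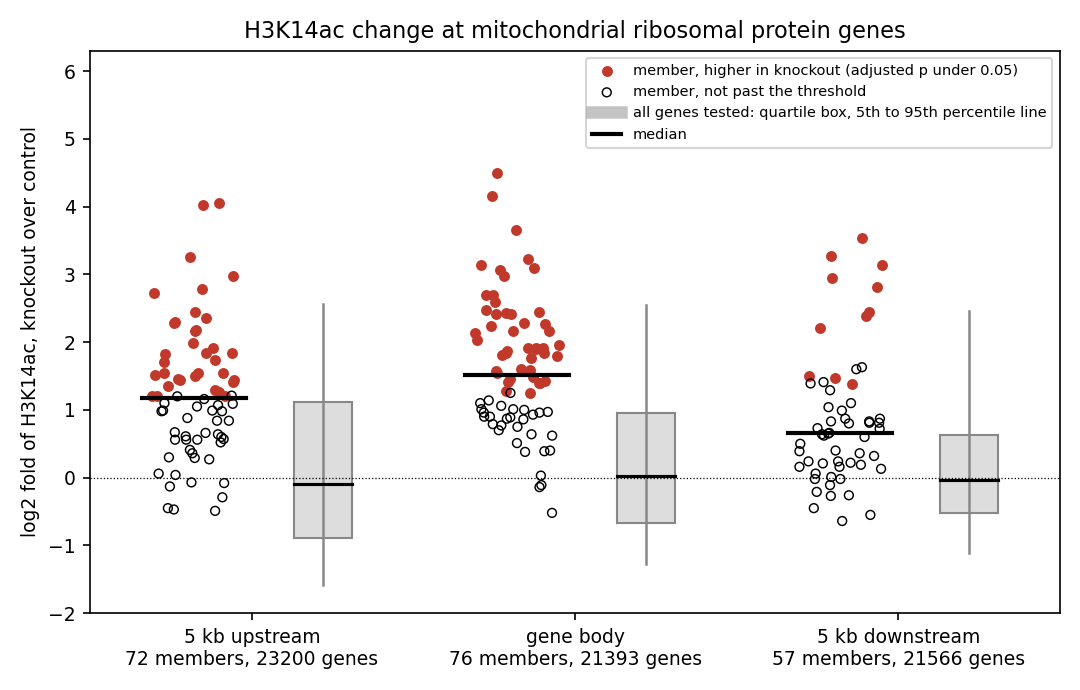
The log2 fold of H3K14ac (vertical axis, knockout over control) is plotted for each mitochondrial ribosomal protein gene by window class, filled red where it was higher at an edgeR adjusted p under 0.05. The grey boxes give the quartiles and the lines the 5th to 95th percentiles of all genes tested, and the black bars the medians, 1.18, 1.52 and 0.66 for the members against -0.09, 0.02 and -0.03.

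The highest upstream folds belonged to Mrps18b and Mrpl45. Mrps18b (GRCm38 chromosome 17, 35910380 to 35916440), one of 3 mammalian relatives of the bacterial small-subunit protein S18, had 373 and 149.6 CPM in the knockouts, against 13 and 18.2 CPM in the controls. Its log2 fold was 4.05 ± 0.75 (SE; edgeR adjusted p = 3.3e-06), and its window holds the start of Ppp1r10, a phosphatase regulator gene, 756 bp away. Mrpl45 (GRCm38 chromosome 11, 97315716 to 97329920), whose protein holds the large subunit to the inner membrane at the exit of the peptide tunnel, had 235 and 72 CPM in the knockouts, against 4.34 and 14.1 CPM in the controls. At Mrpl45 no other gene starts within the window, and the log2 fold was 4.03 ± 0.63 (SE; edgeR adjusted p = 3.17e-08). In both genes the lower knockout library lay several-fold above the higher control, and knockout replicate 1 lay above knockout replicate 2.

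Several of the large-subunit genes that rose have a neighbour that starts within 1 kb on the opposite strand. Mrpl49, opposite Fau, had 77.3 and 29.9 CPM in the knockouts and 7.81 and 3.32 CPM in the controls, a log2 fold of 3.25 ± 0.55 (SE; edgeR adjusted p = 3.51e-07). Mrpl18, opposite Tcp1, had 87.5 and 26.6 CPM in the knockouts and 11.3 and 5.80 CPM in the controls, a log2 fold of 2.73 ± 0.51 (SE; edgeR adjusted p = 5.02e-06). The groups did not overlap in either gene. Mrpl41, opposite Pnpla7, had 189 and 66.5 CPM in the knockouts and 23.4 and 23.2 CPM in the controls, a log2 fold of 2.44 ± 0.55 (SE; edgeR adjusted p = 0.000156). Mrpl35, with no other start in its window, had 46.6 and 15.5 CPM in the knockouts and 3.47 and 4.14 CPM in the controls, a log2 fold of 2.98 ± 0.61 (SE; edgeR adjusted p = 2.23e-05). In Mrpl41 and Mrpl35 too both knockouts lay above both controls. Mrpl55 rose by 2.78, Mrpl32 by 2.29 and Mrpl57, opposite the kinetochore gene Ska3, by 2.28 on the log2 scale (edgeR adjusted p = 7.98e-06, 8.98e-05 and 7.03e-05). High upstream levels were also found where no gene starts nearby: Mrpl1, the gene of a ribosomal protein at the tRNA exit side, had 198 and 126 CPM in the knockouts and 37.3 and 34.8 CPM in the controls (log2 fold 2.16 ± 0.60 SE, edgeR adjusted p = 0.00216), and Mrpl33 had 188 and 79.8 CPM in the knockouts and 29.5 and 38.1 CPM in the controls (log2 fold 1.98 ± 0.56 SE, edgeR adjusted p = 0.00279).

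Members chosen for the role of their proteins had the following upstream values, with no test between them. Of the stalk, which recruits translation factors, Mrpl12 had 42 and 22.2 CPM in the knockouts and 6.94 and 10.8 CPM in the controls (log2 fold 1.84 ± 0.53 SE, edgeR adjusted p = 0.00353). Mrpl11, at the stalk base, rose by 1.71 on the log2 scale (edgeR adjusted p = 0.0035), and Mrpl10 had a log2 fold of 1.21 ± 0.52 (SE; edgeR adjusted p = 0.0524), just short of the threshold. Mrps12, of the decoding site, had 44.3 and 25.5 CPM in the knockouts and 8.68 and 14.9 CPM in the controls (log2 fold 1.55 ± 0.51 SE, edgeR adjusted p = 0.0108). Mrpl3 and Mrpl16, whose proteins lie near the peptidyl transferase centre, did not pass: Mrpl3 had 6.82 and 18.8 CPM in the knockouts and 19.1 and 16.6 CPM in the controls (log2 fold -0.47 ± 0.54 SE, edgeR adjusted p = 0.489), and Mrpl16 had a log2 fold of 0.56 ± 0.51 (SE; edgeR adjusted p = 0.376). Mrpl58, which encodes a peptidyl-tRNA hydrolase built into the large subunit, had a log2 fold of -0.29 ± 0.48 (SE; edgeR adjusted p = 0.644) with overlapping groups, and Mrpl44, related to RNase III, one of 0.84 ± 0.53 (SE; edgeR adjusted p = 0.189). Among proteins with no bacterial relative, Mrps22 of the small subunit had a log2 fold of -0.08 ± 0.54 (SE; edgeR adjusted p = 0.919) and Mrps30, a large-subunit protein despite its name, one of 0.98 ± 0.57 (SE; edgeR adjusted p = 0.149).

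The 3 relatives of bacterial S18 differed in value. Mrps18b of the small subunit rose most, as given above. Mrps18a, whose protein sits in the large subunit, had 53.4 and 35.4 CPM in the knockouts and 12.2 and 22.4 CPM in the controls (log2 fold 1.35 ± 0.48 SE, edgeR adjusted p = 0.0176). Mrps18c, whose protein takes the place of bacterial S18, opposite the helicase gene Helq, had 18.2 and 16.6 CPM in the knockouts and 30.4 and 17.4 CPM in the controls, with groups that overlap (log2 fold -0.45 ± 0.51 SE, edgeR adjusted p = 0.475). The lowest upstream fold was that of Mrpl19, with 18.2 and 36.6 CPM in the knockouts and 39.1 and 38.1 CPM in the controls (log2 fold -0.49 ± 0.46 SE, edgeR adjusted p = 0.387). The differences between these genes were not tested.

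**Figure D2:**
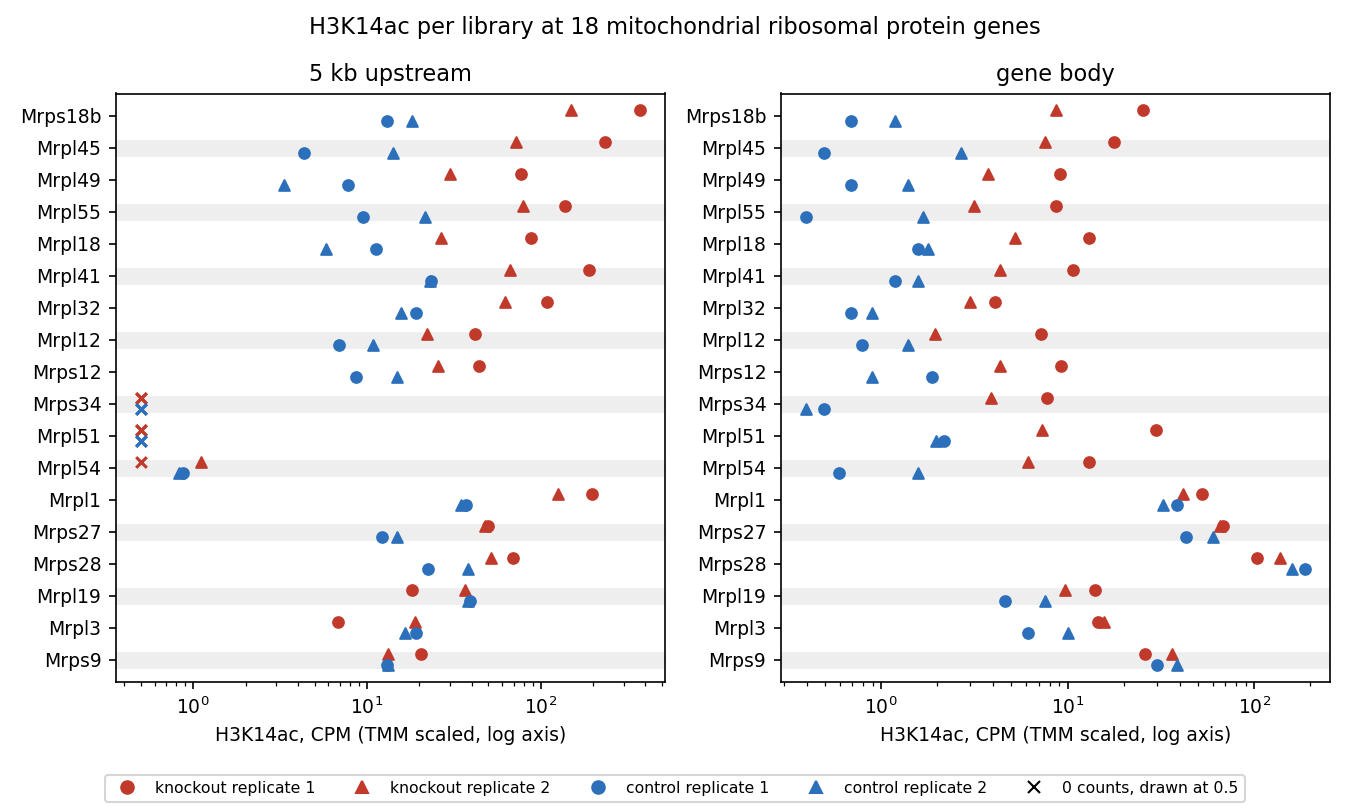
TMM-scaled H3K14ac in CPM (horizontal log axes) is plotted for 18 mitochondrial ribosomal protein genes in each library, with knockouts in red above controls in blue and replicates 1 and 2 as circles and triangles, upstream on the left and gene body on the right. Values of 0 CPM, as upstream of Mrps34 and Mrpl51, are drawn as crosses at 0.5.

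Another gene's start in the upstream window, on either strand, went with more upstream calls, in members and in other genes alike. Of 30 tested members whose upstream window holds another start, 18 were higher (60.0%), and of 42 without one, 16 (38.1%). Among all other genes these shares were 51.9% of 3166 and 20% of 18571. With CpG-rich starts only, the shares were 60.0% and 32.4% in members, against 59.9% and 38.0% in other genes. Of the 29 opposite-strand partners that start in a member's upstream window, 14 were higher over their gene body and 0 lower, where 23.1% of all gene bodies were higher (edgeR adjusted p under 0.05). Each of these partners has the member's start in its own upstream window. Among other genes with another start upstream, 41.3% of bodies were higher, and 49.3% of those with CpG-rich starts. The gene bodies of Twnk and Rab6a, which start inside Mrpl43 and Mrpl48, were higher too. The gene body of Ppp1r10, opposite Mrps18b, had a log2 fold of 3.37 ± 0.39 (edgeR adjusted p = 1.95e-10), and that of Fau, opposite Mrpl49, 3.92 ± 0.60 (edgeR adjusted p = 3.49e-07). At the Mrpl46 and Mrps11 start, each upstream window covers the other gene. Mrps11 had 39.8 and 23.3 CPM upstream in the knockouts and 8.68 and 9.94 CPM in the controls (log2 fold 1.74 ± 0.53 SE, edgeR adjusted p = 0.0056), and Mrpl46 had 37.5 and 31 CPM in the knockouts and 19.1 and 19.1 CPM in the controls (log2 fold 0.84 ± 0.48 SE, edgeR adjusted p = 0.15). Over gene bodies the order was turned, with log2 folds of 1.6 ± 0.57 (SE; edgeR adjusted p = 0.0215) for Mrpl46 and 1.00 ± 0.52 (SE; edgeR adjusted p = 0.112) for Mrps11.

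The 6 members left untested upstream were mostly those whose window belongs to other genes. The upstream windows of Mrpl51, Mrps6, Mrps34 and Mrpl54 lie for 0%, 0.28%, 2.98% and 6.6% of their length outside the upstream windows of other genes. They held between 0 and 2.22 CPM in every library. Over all genes, 386 of 429 upstream windows with no part of their own were at 0 in every library (90.0%), against 0.753% of 19516 that share nothing. A count of 0 in such a window cannot be read as absence of the mark. Of the others left out, Mrps17 had 15.9 and 6.65 CPM in the knockouts, against 3.47 and 2.49 CPM in the controls. Mrpl37 had 0 and 13.3 CPM in the knockouts, against 5.21 and 7.46 CPM in the controls, with overlapping groups.

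Over gene bodies, H3K14ac was higher in the knockouts at 46 of 76 members tested and lower at none (edgeR adjusted p under 0.05), with 0 lower also by DESeq2, by limma-trend and at an unadjusted p under 0.05. The members higher are 60.5%, where 23.1% of all 21393 gene bodies were called higher and 15.2% lower. The groups did not overlap, with the knockouts above, at 69 of the 76, against 40.6% of all gene bodies. The knockouts lay below at 1, Mrps28, against 39.4%, and the median log2 fold was 1.52, against 0.02. The median member had 9.8 and 5.59 CPM in the knockouts, against 2.03 and 2.47 CPM in the controls. Of the 46 calls, 23 remained without knockout replicate 1, all without knockout replicate 2, 10 without control replicate 1 (Mrpl2, Mrpl48, Mrpl51, Mrpl53, Mrpl54, Mrps7, Mrps12, Mrps18b, Mrps34 and Mrps36) and 20 without control replicate 2. Without knockout replicate 2, 61 members were called higher and 1, Mrps28, lower, and when libraries were scaled to the totals of olfactory, vomeronasal and trace amine receptor genes, which LSK cells are not known to use, 30 of the 46 remained.

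Mrps18b again stood near the top, with 25.3 and 8.65 CPM in the knockouts and 0.692 and 1.19 CPM in the controls (log2 fold 4.15 ± 0.58 SE, edgeR adjusted p = 3.96e-08). Mrps34, needed for a stable small subunit, had 7.77 and 3.88 CPM in the knockouts and 0.494 and 0.396 CPM in the controls (log2 fold 3.65 ± 0.65 SE, edgeR adjusted p = 9.65e-06). Mrpl51, opposite the condensin gene Ncapd2, had 29.8 and 7.31 CPM in the knockouts and 2.17 and 1.98 CPM in the controls (log2 fold 3.14 ± 0.53 SE, edgeR adjusted p = 2.81e-06). All 3 had knockout replicate 1 above knockout replicate 2 and both above the controls, and for Mrps34 and Mrpl51 the short gene body is the only window that could be read. Mrpl54 rose by 3.10, Mrpl45 by 2.98, Mrps7 by 3.07 and Mrpl2 by 2.69 on the log2 scale (edgeR adjusted p = 2.81e-05, 3.63e-05, 8.88e-05 and 0.000286). Mrpl34 (GRCm38 chromosome 8, 71464926 to 71465753) held 22 and 8 reads over its body in the knockouts, against 0 and 2 in the controls. Scaled, that is a ratio of 25 with an exact 95% interval of 6.36 to 216, which covers counting error only.

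The bodies of the stalk genes Mrpl12 and Mrpl11 rose by 2.03 and 2.28 on the log2 scale (edgeR adjusted p = 0.00639 and 0.00206), and Mrpl10 had 1.25 ± 0.54 (SE; edgeR adjusted p = 0.0602). Mrpl16, near the peptidyl transferase centre, had 12 and 6.41 CPM in the knockouts and 1.98 and 2.08 CPM in the controls (log2 fold 2.17 ± 0.54 SE, edgeR adjusted p = 0.00119), although its upstream fold did not pass. Mrps12 (2.27), Mrpl41 (2.42), Mrpl44 (1.92) and Mrps30 (1.49) also rose (edgeR adjusted p between 0.000685 and 0.0293). Mrpl3, Mrpl58, Mrps22, Mrps18a and Mrps18c had log2 folds of 0.90, 0.89, 0.86, 0.90 and 0.70 and did not pass (edgeR adjusted p between 0.0884 and 0.316).

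By upstream and gene body counts together, per kb, the mitochondrial ribosomal protein genes ranked low among all genes in the controls and higher in the knockouts: their median percentile was 75.7 and 49.7 in the knockouts, against 27.5 and 29.8 in the controls. Over the gene body alone, the densest member differed by group. Mrpl51 had 13.6 and 3.33 CPM per kb in the knockouts, against 0.991 and 0.903 CPM per kb in the controls, and Mrps34 had 6.73 and 3.36 CPM per kb in the knockouts, against 0.428 and 0.343 CPM per kb in the controls. In both controls the densest member was Mrps28, with 0.848 and 1.14 CPM per kb in the knockouts, against 1.53 and 1.32 CPM per kb in the controls. By the mean of the 4 libraries Mrpl51 came first (4.70), followed by Mrpl53 (2.97), Mrpl57 (2.73), Mrps34 (2.71) and Mrpl54 (2.41), and the sparsest with counts were Mrpl39 (0.254) and Mrps21 (0.288). The body of Mrpl33 lies wholly under other genes and was at 0 in every library, as were 89.7% of 1422 such bodies. The other body left untested, that of Mrpl36, had 3.51 and 0.596 CPM in the knockouts and 0.0988 and 0.0990 CPM in the controls.

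Short members carried most of the gene body calls. Of 27 members tested with bodies under 5 kb, 25 were higher (92.6%), of 28 between 5 and 10 kb, 18 (64.3%), of 11 between 10 and 20 kb, 2 (18.2%), and of 10 over 20 kb, 1 (10%). Among all other genes the shares in these bins were 32.1%, 31.6%, 28.7% and 14%, so that members lay above them under 10 kb and below them from 10 kb on. That one was Mrpl48 (58880 bp as deposited), with 107 and 59.5 CPM in the knockouts and 16.4 and 26.2 CPM in the controls (log2 fold 1.96 ± 0.32 SE, edgeR adjusted p = 1.64e-06). At the other end, the longest member, Mrps28 (121712 bp), had 103 and 138 CPM in the knockouts and 187 and 160.3 CPM in the controls, both knockouts below both controls, and did not pass (log2 fold -0.52 ± 0.29 SE, edgeR adjusted p = 0.144). Mrps9 and Mrps25 had overlapping groups and log2 folds of -0.14 and -0.11 (edgeR adjusted p = 0.74 and 0.853). Across the 76 members, the Spearman correlation of body length with body log2 fold was -0.70, and across all 21393 genes it was -0.19. Short and long genes differ in counts and in the share of the body that lies near the start, and genes are not independent replicates.

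**Figure D3:**
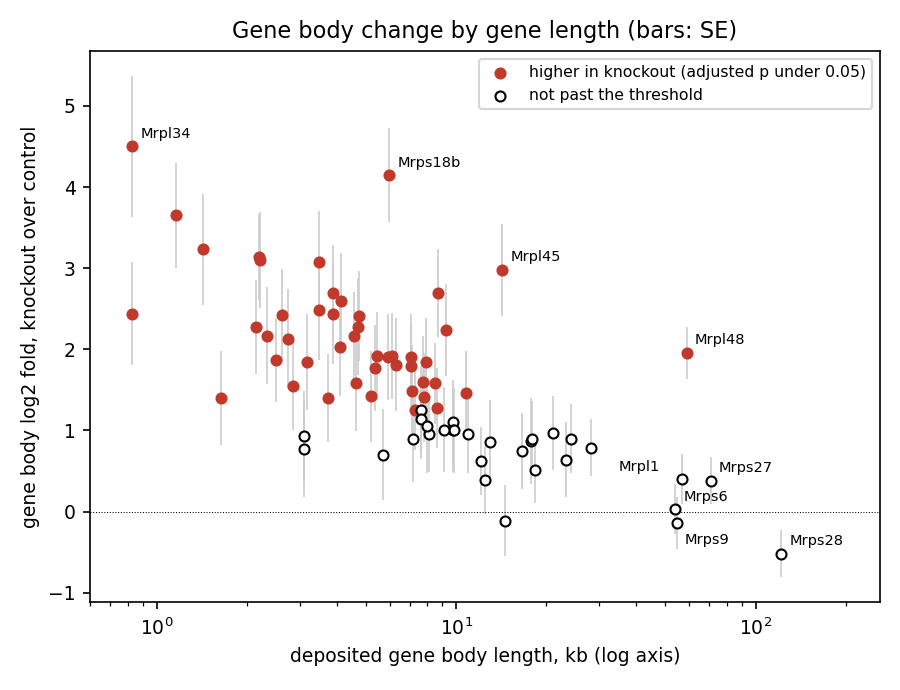
The gene body log2 fold of each tested member (vertical axis, knockout over control, bars SE) is plotted against its deposited length in kb (log axis), filled red where higher at an edgeR adjusted p under 0.05. The short genes lie above 0, from Mrpl34 at the top, and of those over 20 kb Mrpl48 alone was called.

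Upstream and body calls came together in 27 members, and 23 tested in both passed in neither. In 15 members the body was called and the upstream window was not, Mrpl16, Mrpl43, Mrpl2 and Mrps7 among them, and in 5 the reverse: Mrpl1, Mrpl13, Mrps11, Mrps18a and Mrps27. Mrps27, an RNA-binding small-subunit protein gene of 70776 bp opposite Ptcd2, had 50.01 and 47.6 CPM upstream in the knockouts and 12.2 and 14.9 CPM in the controls (log2 fold 1.84 ± 0.49 SE, edgeR adjusted p = 0.00137), and over its body 68.4 and 65.9 CPM in the knockouts and 43.3 and 60.1 CPM in the controls (log2 fold 0.38 ± 0.29 SE, edgeR adjusted p = 0.301). The Spearman correlation of upstream and body log2 folds was 0.50 over 70 members and 0.77 over 19996 genes, from the same 4 libraries.

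**Figure D4:**
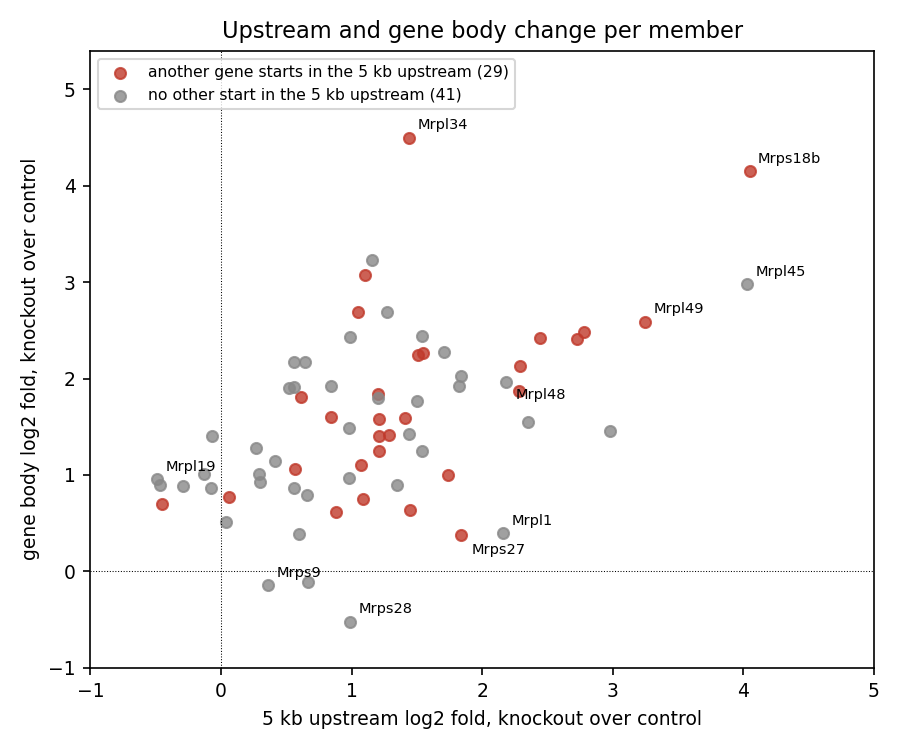
The gene body log2 fold (vertical axis) is plotted against the upstream log2 fold (horizontal axis), both knockout over control, for the 70 members tested in both, in red where another gene starts in the 5 kb upstream. Mrps18b and Mrpl45 are high on both axes, Mrpl34 is high over its body, and Mrpl1 and Mrps27 have body log2 folds of 0.40 and 0.38 at higher upstream ones.

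Downstream of the gene end, H3K14ac was higher in the knockouts at 11 of 57 members tested and lower at none (edgeR adjusted p under 0.05), again with 0 lower by DESeq2, by limma-trend and at an unadjusted p under 0.05. The members higher are 19.3%, where 10.8% of all 21566 downstream windows were called higher and 2.29% lower. The median log2 fold was 0.66, against -0.03, and the knockouts lay above both controls at 34 of 57, against 29.9% of all windows. Of the 11 calls, 7 remained without knockout replicate 1, without control replicate 1 and without control replicate 2, and all without knockout replicate 2, where 17 were called.

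Most of the downstream calls were in windows that hold the start of another gene. Counts per window do not place the reads at that start. Of 18 genes that start in a member's downstream window, 13 were tested over the body, with 6 higher and 0 lower. Over all gene bodies 23.1% were higher. Of 14 tested members whose downstream window holds another start, 9 were higher (64.3%, median log2 fold 2.30), and of 43 without one, 2 (4.65%, median 0.40). Among other genes the shares were 47.6% of 2784 and 4.82% of 17328. Mrpl38, with the start of Trim65 in its window, had 438 and 106 CPM in the knockouts and 22.7 and 23.9 CPM in the controls (log2 fold 3.53 ± 0.73 SE, edgeR adjusted p = 0.00349). Mrps15, before Oscp1, had 192 and 58 CPM in the knockouts and 10.2 and 17.6 CPM in the controls (log2 fold 3.14 ± 0.52 SE, edgeR adjusted p = 0.000931). Knockout replicate 1 was the highest library in both. Mrpl12, before Slc25a10, the mitochondrial dicarboxylate carrier, had 198 and 59.4 CPM in the knockouts and 14.9 and 17.6 CPM in the controls (log2 fold 2.95 ± 0.50 SE, edgeR adjusted p = 0.00109). Mrps36, whose protein has been assigned to the 2-oxoglutarate dehydrogenase complex and which lies before the kinase gene Cdk7, rose by 3.27 on the log2 scale (edgeR adjusted p = 0.002). Mrpl34 (before Dda1), Mrpl20 (before Ccnl2), Mrps18b (before Atat1), Mrps16 (before Dnajc9) and Mrpl52 (before Mmp14) rose by 2.81, 2.44, 2.38, 2.21 and 1.47 (edgeR adjusted p between 0.00174 and 0.0399).

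The remaining calls had no other start in the window. Mrps31 had 50.3 and 46.2 CPM in the knockouts, against 18 and 16 CPM in the controls (log2 fold 1.5 ± 0.39 SE, edgeR adjusted p = 0.0161). Mrpl4 had 52.2 and 51.4 CPM in the knockouts, against 13.3 and 26.3 CPM in the controls (log2 fold 1.38 ± 0.40 SE, edgeR adjusted p = 0.0313). The lowest downstream folds, in Mrpl1 (-0.64) and Mrps9 (-0.55), did not pass (edgeR adjusted p = 0.326 and 0.393). The 21 members left out by the filter held between 0 and 26.1 CPM in any library, Mrpl53, Mrps34 and Mrpl55 among them with at most 5.46% of the window their own.

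**Figure D5:**
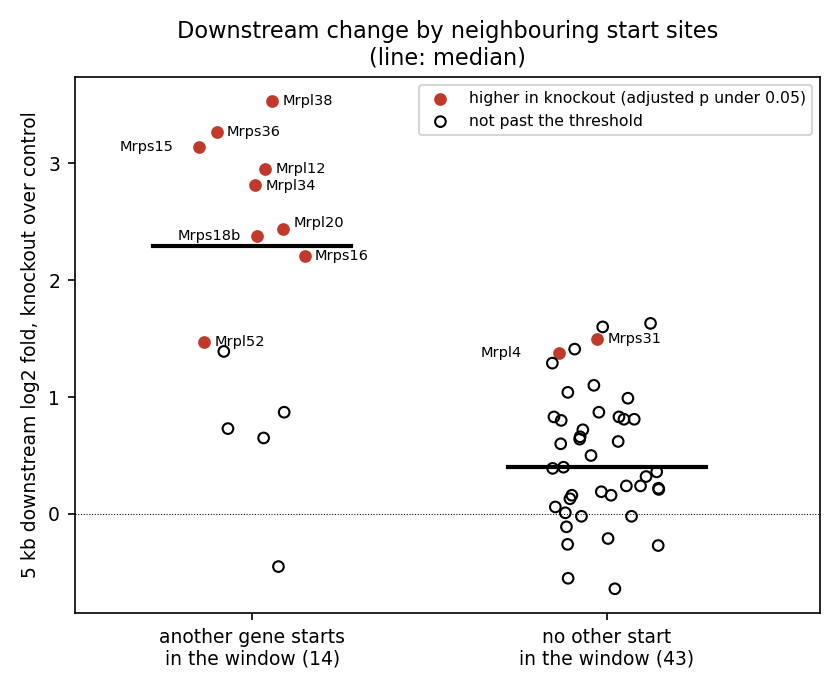
The downstream log2 fold (vertical axis, knockout over control) of the 57 tested members is split by whether another gene starts in the 5 kb after the end, filled red where higher at an edgeR adjusted p under 0.05, with a bar at each median. The medians are 2.30 with another start and 0.40 without, and 9 of the 11 calls lie on the left.

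Beside genes of like architecture, the upstream share of the mitochondrial ribosomal protein genes was close to the background. Of members with CpG-rich starts, 44.8% were higher upstream, against 42.7% of 10247 other CpG-rich genes, and the median log2 folds were 1.10 and 0.93. With CpG-rich starts and bodies under 10 kb, 76.9% of 52 members were higher over the body, against 65.9% of 2519 other genes, with medians of 1.86 and 1.81. Under 5 kb the shares were 92.3% of 26 and 74.1% of 1215, and at 5 to 10 kb 61.5% of 26 and 58.3% of 1304. From 10 to 20 kb the order was the other way, with 1 of 10 members against 47.6% of 1915 other genes, as over 20 kb, with 11.1% of 9 and 19.1% of 5931. None of these differences was tested, so none of the counts is given as a result particular to mitochondrial ribosomal protein genes.

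By subunit, counting Mrps18a and Mrps30 with the large subunit to which their proteins belong, 27 of 48 large-subunit genes were higher upstream (56.2%, median log2 fold 1.38) and 7 of 24 small-subunit genes (29.2%, median 0.65). Over gene bodies they were 34 of 49 (69.4%, median 1.77) and 12 of 27 (44.4%, median 1.01). Downstream the order was the other way, with 6 of 36 large-subunit genes (16.7%, median 0.64) and 5 of 21 small-subunit genes (23.8%, median 0.81). Over all genes 24.0% of upstream windows, 23.1% of gene bodies and 10.8% of downstream windows were higher. Mrps36, called higher in all 3 windows, was counted with the small subunit by its symbol. The median body length was 7052 bp in the large-subunit genes tested and 8609 bp in the small-subunit genes, and the difference between subunits was not tested. Mrps18b, the member with the highest upstream fold, belongs to the small subunit.

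Other genes of mitochondrial translation gave counts of the same order. Of ribosomal proteins with other names, Dap3, Ptcd3 and Gadd45gip1 rose upstream, Chchd1 did not pass and Aurkaip1 was not tested. Over the body Dap3, Ptcd3, Chchd1 and Aurkaip1 rose. The body of Gadd45gip1 was at 0 in every library and was not tested, and that 0 does not show absence of the mark. Dap3, a small-subunit GTP-binding protein, had 110.2 and 65.4 CPM upstream in the knockouts and 19.96 and 18.2 CPM in the controls (log2 fold 2.19 ± 0.50 SE, edgeR adjusted p = 0.000187). Of translation factors 6 of 12 rose upstream and 4 of 12 over the body, the elongation factor gene Tufm among both (upstream log2 fold 2.54 ± 0.53 SE, edgeR adjusted p = 3.39e-05). Of assembly and RNA modification genes 11 of 21 rose upstream and 13 of 21 over the body. They include Slirp, which stabilises mitochondrial messenger RNA, with 255 and 145 CPM upstream in the knockouts and 17.4 and 15.7 CPM in the controls (log2 fold 3.58 ± 0.67 SE, edgeR adjusted p = 3.75e-06), and Rbfa, a small-subunit assembly factor (log2 fold 3.37 ± 0.59 SE, edgeR adjusted p = 1.02e-06). Of mitochondrial aminoacyl-tRNA synthetases 8 of 16 rose upstream and 8 of 17 over the body. None of these 4 lists had a gene called lower by edgeR in either window. Over all genes 24.0% were higher upstream and 23.1% over the body. Of other genes with CpG-rich starts 42.7% and 35.7% were higher, and differences of the 4 lists from these shares were not tested.

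The cytosolic ribosomal protein genes and the nuclear genes of oxidative phosphorylation, whose products work beside those of the mitochondrial ribosome, were also higher in many cases. Of cytosolic ribosomal protein genes 41 of 62 were higher and 2 lower upstream, and 78 of 83 were higher over the body with a median log2 fold of 2.55. Of oxidative phosphorylation genes 44 of 92 were higher and 1 lower upstream, and 69 of 91 were higher and 1 lower over the body, with a median of 1.71. The mitochondrial ribosomal protein genes had 47.2% higher upstream, against 66.1% and 47.8%, and 60.5% over the body, against 94.0% and 75.8%. The lists differ in length, with a median body of 7146 bp in the members tested, against 3068 and 7074 bp. Of members with bodies under 5 kb, 92.6% were higher over the body. Over all genes the shares were 24.0% upstream and 23.1% over the body. These differences were not tested.

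A larger share of the members' reads lay upstream in the knockouts. Of the members' counts in the 3 windows, 28.71% ± 5.14 lay upstream in the knockouts and 17.08% ± 0.62 in the controls (SD, n = 2 each), and 54.92% ± 3.64 lay over gene bodies in the knockouts and 63.29% ± 0.89 in the controls. The downstream share was 16.37% ± 1.51 in the knockouts and 19.63% ± 0.27 in the controls. Both knockout libraries lay outside both controls in each window. Over all genes the upstream share was 13.94% ± 3.60 in the knockouts and 8.14% ± 0.40 in the controls, the gene body share 76.03% ± 4.22 in the knockouts and 83.13% ± 0.70 in the controls, and the downstream share 10.03% ± 0.62 in the knockouts and 8.72% ± 0.30 in the controls. The downstream share was thus lower in the knockouts over the members and higher over all genes, a difference that was not tested. By library, the members' upstream share was 32.34% and 25.07% in the knockouts and 16.65% and 17.52% in the controls, with 95% Wilson intervals, for counting error only, of 31.5 to 33.19%, 24.21 to 25.95%, 15.87 to 17.45% and 16.78 to 18.28%. Without the 5 members with the highest counts the upstream difference was 8.0 points in place of 11.62, and the gene body difference -0.4 in place of -8.37. The members took 0.3165% ± 0.0577 of all upstream counts in the knockouts and 0.1421% ± 0.0276 in the controls, and 0.1108% ± 0.0278 of all gene body counts in the knockouts and 0.0516% ± 0.0104 in the controls. An exact two-sided permutation test over 4 libraries cannot go below 0.333, so none is given for these shares.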

How the data were processed

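H3K14ac CUT&Tag was measured in 2 knockout and 2 control libraries. The authors deposited raw counts of reads for every Entrez gene in 3 window classes, per the file headers, with a length in bp for the gene body. featureCounts and mm10 are named in the submitters' processing notes. How reads were aligned, how duplicates and overlapping genes were treated, and any spike-in are not given in the sources used here. Series tables and library files agreed, with 0 values differing.

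Symbols were matched by Entrez identifier to a RefSeq table of GRCm38.p6 (25275 of 27179 genes, 93.0%). Positions, CpG ratios and sequences came from that assembly, starts from curated transcripts. The deposited length was within 20% of the curated span for 77 of the 78 members and 94.2% of all genes. The CpG ratio is observed over expected CpG within 500 bp of the start, with 0.6 as the threshold.

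Each class was tested on its whole table with edgeR 4.0.16 in R 4.3.3: filterByExpr (minimum count 10, minimum total 15), TMM, quasi-likelihood F-test, Benjamini-Hochberg adjustment over all genes tested, threshold 0.05. The SE is the log2 fold divided by the square root of F. On simulated counts the step recovered 52.6%, 73.7% and 54.7% of genes changed 4-fold (upstream, gene body, downstream) and 0%, 2.0% and 0.5% of those changed 2-fold. In these simulations 190 to 198 changed genes were tested among 21127 to 22709 genes in all. That is a far smaller share than was called in the real data, so the adjusted threshold was harder to pass. PCR copies are not independent molecules, so intervals cover counting error only. The members, gene lists and rule for named genes were chosen with earlier results of these data known. The rule took, per class, the 6 highest and 4 lowest folds among tested members at or above the median level. It added the 5 highest and 3 lowest levels, and untested members. It also took up to 6 members with another start upstream and differing calls, up to 3 genes of each related list, and a set by role. Other members were named after their values were seen. The main test did not pair libraries by replicate number. Alternatives were other scalings (library totals, pooled totals, totals of olfactory, vomeronasal and trace amine receptor genes, DESeq2 1.42.0 size factors), the DESeq2 Wald test, limma-trend (limma 3.58.1, prior count 2), a minimum mean count of 50 in place of the filter, no filter at all, leaving out single libraries, a GC correction (loess span 0.3) and replicate blocks. Plots used matplotlib 3.10.9, and tables pandas 2.3.3 and scipy 1.17.1 under Python 3.11.15.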

Additional observations from a re-analysis of the deposited data

How the results depend on the processing

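No named member's log2 fold past the threshold changed sign under the alternatives run: 621, 725 and 521 values kept their side of the threshold (upstream, gene body, downstream), 120, 85 and 10 lost the call and 32, 31 and 9 gained one. Members called higher numbered 34 upstream, 46 over gene bodies and 11 downstream. With a mean count of at least 50 they were 9 of 10, 8 of 25 and 3 of 8 tested, with medians of 2.47, 1.01 and 0.79. That mean is taken over knockouts and controls together, so a member can pass through its knockout counts alone. Mrpl41 did so, with 166 and 60 upstream counts in the knockouts and 27 and 28 in the controls. These shares and medians therefore give no separate support to the calls. Receptor gene totals gave 49, 30 and 10, with medians of 2.15, 2.18 and 0.97, where the median of all genes moved to 0.84, 0.67 and 0.28. Pooled totals gave 49, 50 and 12 (medians 1.74, 1.72 and 0.65, all genes 0.46, 0.24 and -0.04), and library totals 23, 54 and 9 (0.97, 1.85 and 0.46, all genes -0.27, 0.36 and -0.23). The DESeq2 Wald test gave 23, 37 and 7. Upstream windows with no other start held 16 calls. Without the 5 members with the highest counts the share differences were 8.0, -0.4 and -7.6 points. For these the cause was not tested.

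With 1 library left out, calls ranged from 0 to 8 upstream, from 10 to 61 over gene bodies and from 7 to 17 downstream, and the medians from 0.96 to 1.46, 1.06 to 1.98 and 0.5 to 0.99. Calls lower were 0 to 1 over gene bodies, 1 without knockout replicate 2. A lone library was assumed to vary like the other group.

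The labels do not say whether libraries with the same replicate number were made together, though their column names hold neighbouring serial numbers. Deviations of same-numbered libraries correlated at -0.284, -0.359 and -0.22. With 2 libraries per group, these values cannot show whether a step was shared. The replicate block gave 19, 24 and 11 calls, with a GC correction 23, 28 and 10. A crossed pairing, added after seeing the data, gave 40, 60 and 17 higher and 1 lower over gene bodies.

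In the simulation a 2-fold change was rarely recovered, but far fewer genes were changed there than were called in the real data. Its rates therefore do not give the power of the real test. Members that did not pass were still not shown to be unchanged.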
